A study of Homo sapiens with 6 samples.

Results

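The genes described here are 32 zinc finger genes of band 19p12, which lies beside the centromere of chromosome 19. They were chosen by name, from a list of the KRAB zinc finger cluster of that band. Earlier results of these data were known when that choice was made. Each was represented by its brightest probe set among those that the platform annotation ties to a single gene symbol. Of the 32 genes, 27 had such a probe set, out of 18132 genes in the whole series. ZNF98 and ZNF492 were present only on a probe set that carries several symbols, and ZNF66, ZNF728 and ZNF730 had no value in the table used here.

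KRAB zinc finger proteins bind DNA through tandem zinc fingers and, through their KRAB domain, recruit the corepressor TRIM28 (also called KAP1). TRIM28 in turn brings the H3K9 methyltransferase SETDB1 and the HP1 proteins, and many targets of these complexes are transposable elements. The 19p12 genes arose by tandem duplication in primates. Among them, ZNF91 is known to repress SVA elements and ZNF93 to repress L1 elements, and ZNF675, also called TIZ, is known as an inhibitor of TRAF6 signalling.

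The cells were ARPE-19, a human line established from the pigment epithelium of the retina, and each sample was measured on 1 Affymetrix array. The treated group (3 h, 3 arrays) had received 10 mU/ml of glucose oxidase, an enzyme that makes hydrogen peroxide from glucose, for 3 h. The untreated group (0 h, 3 arrays) had received none. All cells were transfected 48 h before the treatment, with a GFP plasmid by the protocol, but for the 3 h arrays the sample descriptions give a GFP construct with satellite alpha, a centromeric repeat. If those descriptions hold, treatment and construct cannot be told apart, and no group of cells was kept for 3 h without the enzyme. The labels do not say whether replicates were separate cultures, and p-values measure the spread between these arrays, which may be technical.

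A gene was tested if its mean over the 6 arrays lay at or above a floor of 4.64 (log2), which 40% of the probe set means, controls left out, fall below, and is called dim otherwise. Of 12221 genes tested, 51.3% differed between 3 h and 0 h at an adjusted p under 0.05 (limma, Benjamini-Hochberg adjustment over all tested genes), 20.6% higher and 30.8% lower. Correlations across genes were 0.996 to 0.997 among the 3 h arrays, 0.997 to 0.998 among the 0 h arrays and 0.979 to 0.983 between the groups. The poly-A spike controls, 24 probe sets in all, each read lower on the 3 h arrays than on the 0 h arrays, without overlap. The actin control read at its 5′ end minus its 3′ end gave -1.24 to -1.13 on the 3 h arrays and -2.11 to -1.99 on the 0 h arrays. These control values moved with every comparison that follows, and their part in the results was not tested. Of 9 retinal pigment epithelium markers 6 were above the floor, among them KRT8 and KRT18, whereas RPE65, RLBP1 and TYRP1 were dim. Among these epithelial markers 3 were higher and 1 was lower at 3 h, and their summed log2 level was 60.2 to 61.0 at 3 h and 59.4 to 59.7 at 0 h. Of 5 markers of blood, endothelial and neuronal cells with a probe set, 4 were above the floor, 1 was lower and 0 were higher in limma. PTPRC was dim. CD3E, VWF, PECAM1 and SYT1 were above the floor, with means over all arrays of 5.11, 5.19, 5.29 and 6.22. The neuronal marker SYT1 was the 1 called lower (-0.22, limma adjusted p = 0.0151). The summed level of these 5 markers was 24.1 to 24.5 at 3 h and 24.1 to 24.4 at 0 h. The part of either marker list in the results was not tested.

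The promoters of these genes resemble each other. RefSeq promoter windows of assembly GRCh38.p14, from 250 bases before to 50 after the annotated start, were found for 25 of the 32 genes. Over the 300 pairs of these windows, identity across aligned bases had a median of 83.8% and ran from 71.9% to 91.2%. The windows of 4 genes are shown because their transcripts differ in outcome below: ZNF626 and ZNF726 were lower at 3 h, ZNF85 was not called, and ZNF91 was higher at its brightest probe set. Capitals mark the CCAAT box with its flank, CCAATCAG, and the run CTGTCACTCAGG.
ZNF626, chr19:20661522-20661821, minus strand: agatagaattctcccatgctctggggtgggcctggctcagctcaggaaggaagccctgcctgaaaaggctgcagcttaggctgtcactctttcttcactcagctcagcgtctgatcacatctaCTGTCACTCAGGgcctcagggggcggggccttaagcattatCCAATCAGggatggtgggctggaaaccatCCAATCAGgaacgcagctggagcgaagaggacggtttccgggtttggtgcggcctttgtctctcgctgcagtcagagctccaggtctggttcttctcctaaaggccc
ZNF726, chr19:23914636-23914935, plus strand: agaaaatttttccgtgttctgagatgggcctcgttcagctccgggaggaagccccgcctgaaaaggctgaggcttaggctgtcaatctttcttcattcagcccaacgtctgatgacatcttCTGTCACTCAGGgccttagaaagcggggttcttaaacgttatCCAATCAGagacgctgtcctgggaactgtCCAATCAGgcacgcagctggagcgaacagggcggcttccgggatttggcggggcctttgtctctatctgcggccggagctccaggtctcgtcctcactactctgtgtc
ZNF85, chr19:20923001-20923300, plus strand: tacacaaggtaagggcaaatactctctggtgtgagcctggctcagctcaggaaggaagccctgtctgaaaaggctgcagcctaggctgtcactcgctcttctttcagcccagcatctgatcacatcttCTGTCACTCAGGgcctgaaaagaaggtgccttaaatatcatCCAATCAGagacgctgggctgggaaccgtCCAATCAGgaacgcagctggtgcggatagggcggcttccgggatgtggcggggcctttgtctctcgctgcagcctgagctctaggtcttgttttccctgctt
ZNF91, chr19:23395422-23395721, minus strand: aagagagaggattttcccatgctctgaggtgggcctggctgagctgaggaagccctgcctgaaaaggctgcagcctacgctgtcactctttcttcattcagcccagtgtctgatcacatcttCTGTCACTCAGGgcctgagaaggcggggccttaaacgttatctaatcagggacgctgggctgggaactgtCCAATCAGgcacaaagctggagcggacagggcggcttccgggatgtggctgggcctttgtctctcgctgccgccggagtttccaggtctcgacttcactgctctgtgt

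CCAATCAG, the box that the factor NF-Y is known to bind, was searched on both strands. It was present in all 25 of the windows found, against 17.3% of the 185 windows of other genes with a ZNF number on chromosome 19 and 4.16% of windows of all genes. It stood at least 2 times in 13 of the 25, as in ZNF626, ZNF726 and ZNF85, while ZNF91 held 1 copy. Among the other tested members with a window, ZNF254 and ZNF708, both lower at 3 h, and ZNF429, not called, also held 1. ZNF93 and ZNF431, both lower, and ZNF430, not called, held 2. Whether the number of copies goes with direction was not tested. The run CTGTCACTCAGG was picked as the most frequent run of 12 bases in these windows, so its presence in 18 of 25 is no finding, and 0.136% of all windows held it. The ETS motif CCGGAAG was present in 76.0% of the members' windows and 10.7% of all windows, and the GC box GGGCGG, which Sp1 is known to bind, in 76.0% and 44.6%. Of the 185 windows of other genes with a ZNF number on chromosome 19, the ETS motif was present in 74 and the GC box in 127, and among windows of such genes on other chromosomes the shares were 36.9% and 60.0%. Motifs of factors known from the oxidative stress response were searched too. The AP-1 motif TGANTCA was in 0 of 25 windows, against 7.76% of all windows, and the core of the antioxidant response element, TGACNNNGC, in 2 of 25, against 13.6%. A match describes the letters of the window and shows no binding. The members' windows resemble each other (median identity 83.8%), so motif counts over the 25 are not separate observations. The windows of ZNF91 and ZNF254, called in opposite directions at their brightest probe sets but not at the other probe set of ZNF91, were 90.0% identical over 290 aligned bases, and those of ZNF91 and ZNF726 were 87.4% identical over 294.

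**Figure D1:**
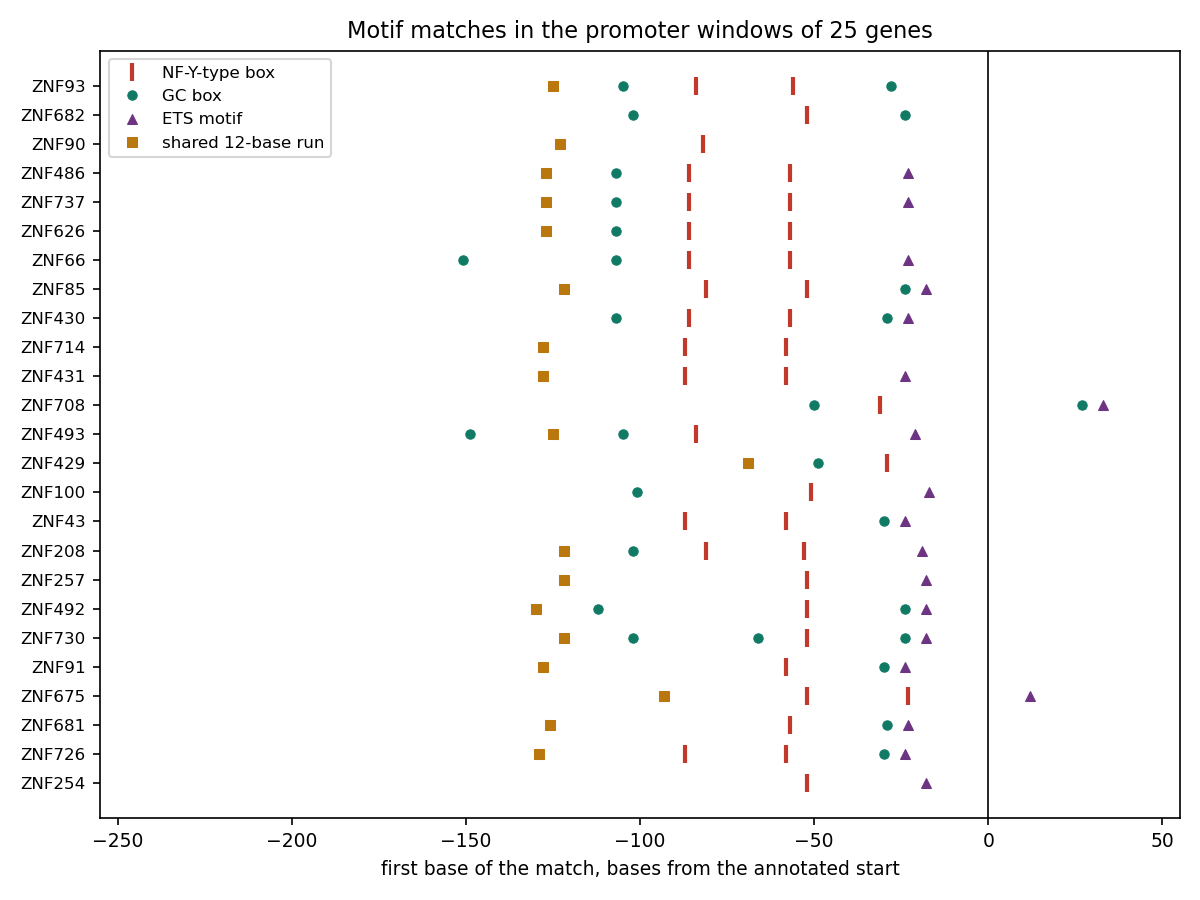
Positions of 4 motifs in the promoter windows of 25 zinc finger genes of 19p12, in bases from the annotated start on the x axis, with the genes in chromosome order toward the centromere from top to bottom. Red bars mark the NF-Y-type box, found in all 25 windows and at least 2 times in 13, orange squares the shared run of 12 bases, found in 18.

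The comparison asks which transcripts of the cluster differed after exposure to the peroxide-generating enzyme. More of the tested genes were lower than higher at 3 h. Of the 27 genes with a probe set 11 were tested and 16 were dim, a dim share of 59.3%, against 32.6% of all genes. Of the 11, 7 fell (ZNF626, ZNF726, ZNF254, ZNF708, ZNF738, ZNF93 and ZNF431), 1 rose (ZNF91) and 3 did not pass the threshold (ZNF85, ZNF430 and ZNF429). The background shares are 30.8% lower and 20.6% higher over all tested genes. The median log2 change was -0.30 over the 11 tested members and -0.04 over all tested genes. ZNF726 and ZNF254 were above the floor only through their 0 h arrays, so the counts over tested members do not stand for the whole cluster.

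ZNF626 had log2 values of 6.86, 7.03 and 7.00 on the 3 h arrays, against 7.50, 7.42 and 7.38 on the 0 h arrays. Every 3 h array lay below every 0 h array. The level averaged 6.96 ± 0.09 at 3 h and 7.43 ± 0.06 at 0 h (SD, n = 3 each), a log2 change of -0.47 (SE 0.07) with an adjusted p of 0.000538 in limma. This value comes from a probe set with the suffix x_at, which Affymetrix gives to probe sets that may cross-hybridise. A probe set of ZNF626 without such a mark read 6.82, 6.81 and 6.94 at 3 h, against 7.50, 7.37 and 7.45 at 0 h. It was also called lower when all single-symbol probe sets above the floor were tested one by one (log2 change -0.59, limma adjusted p = 0.000242). In that test 26.1% of all probe sets were lower and 25.6% higher. ZNF626 has 5 probe sets, and the rest were under the floor. With every single-symbol probe set tested and no floor, those stood at -0.33 (lower), -0.23 and 0.15 (neither called). There 16.0% of all probe sets were lower and 16.1% higher. Averaged over all 5, ZNF626 stood at -0.29 and was called lower (limma adjusted p = 0.00152).

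ZNF726 had the largest change among the tested members. It read 4.65, 4.56 and 4.52 at 3 h, against 5.26, 5.55 and 4.94 at 0 h. The groups did not overlap, and the 0 h arrays were spread more widely (SD 0.31) than the 3 h arrays (SD 0.07). The log2 change was -0.68 (SE 0.13, n = 3 each, limma adjusted p = 0.00324). ZNF254, the member nearest the centromere, read 4.35, 4.61 and 4.59 at 3 h, against 5.25, 5.01 and 4.93 at 0 h. It fell by 0.55 on the log2 scale (SE 0.10, limma adjusted p = 0.00232), again without overlap. The other probe set of ZNF254, also x_at and under the floor, stood at -0.31 with overlapping groups. It was not called when every single-symbol probe set was tested with no floor (limma adjusted p = 0.0813). The 3 h means of both genes, 4.58 for ZNF726 and 4.52 for ZNF254, were under the floor, so the sizes of these decreases rest on dim signal at 3 h, and both probe sets carry the x_at mark.

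ZNF708 read 4.84, 5.24 and 4.99 at 3 h, against 5.54, 5.44 and 5.33 at 0 h. It fell by 0.41 (SE 0.10, limma adjusted p = 0.00975), on a probe set with the suffix a_at, which marks transcripts of the same gene. ZNF738 read 5.01, 5.19 and 5.14 at 3 h, against 5.27, 5.45 and 5.63 at 0 h. It fell by 0.34 (SE 0.10, limma adjusted p = 0.0167), and its probe set carries the suffix s_at, which marks probes shared between genes. In neither gene did the groups overlap, and 3 h replicate 2 was the highest treated array for both. The call of ZNF738 ended without 3 h replicate 1 (-0.28) or without 0 h replicate 3 (-0.25).

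The other decreases called were smaller and closer to the threshold. ZNF93, the L1 repressor, read 5.10, 4.76 and 5.13 at 3 h, against 5.40, 5.29 and 5.20 at 0 h (log2 change -0.30, SE 0.10, limma adjusted p = 0.0380). Its groups did not overlap, with 3 h replicate 2 well below the other treated arrays, and the call ended without that array (-0.18), without 0 h replicate 1 (-0.25) and without 0 h replicate 2 (-0.30). ZNF431 read 5.55, 5.48 and 5.44 at 3 h, against 5.88, 5.78 and 5.54 at 0 h (log2 change -0.24, SE 0.09, limma adjusted p = 0.0459). Its groups overlapped by 1 array each, 3 h replicate 1 and 0 h replicate 3. That call ended when any single array other than 0 h replicate 3 was left out, with log2 changes of -0.27 to -0.17. Neither ZNF93 nor ZNF431 was called when dim genes were kept in the fit, with limma adjusted p values of 0.0649 and 0.0784. The other probe set of ZNF93, x_at and under the floor, stood at -0.29 without overlap. It was lower with every single-symbol probe set tested and no floor (limma adjusted p = 0.0166), as were 16.0% of all probe sets. The brightest was not called there (limma adjusted p = 0.0701). Averaged over both, ZNF93 stood at -0.30 and was called lower (limma adjusted p = 0.00784).

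ZNF91, the SVA repressor, was the exception in direction, and its 2 probe sets disagreed. The brightest, an x_at probe set, read 6.27, 5.77 and 6.10 at 3 h, against 5.66, 5.64 and 5.50 at 0 h. All 3 treated arrays were above the untreated ones, and the log2 change was 0.44 (SE 0.12, limma adjusted p = 0.0134). The other probe set, without a cross-hybridisation mark but under the floor, read 3.32, 3.17 and 3.25 at 3 h, against 4.00, 3.82 and 3.87 at 0 h. With every single-symbol probe set in the test and no floor, where 16.0% of probe sets were lower and 16.1% higher, it had a log2 change of -0.65 (SE 0.08, limma adjusted p = 0.000694), and the x_at probe set stayed higher with an adjusted p of 0.0265. Averaged over both, ZNF91 stood at -0.10 and was not called (limma adjusted p = 0.328). The data therefore do not settle a direction for this gene.

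Among the tested members without a call, ZNF85 read 6.52, 6.66 and 6.46 at 3 h, against 6.70, 6.67 and 6.60 at 0 h. Its groups overlapped, and the log2 change was -0.11 (SE 0.07, limma adjusted p = 0.195), on a probe set with no cross-hybridisation mark. ZNF430 read 5.92, 5.92 and 6.09 at 3 h, against 5.89, 5.84 and 5.76 at 0 h. Its 3 h arrays were all above its 0 h arrays, but by little, and the change of 0.15 (SE 0.07) did not pass (limma adjusted p = 0.0982). ZNF429 read 5.39, 5.34 and 5.73 at 3 h, against 5.49, 5.57 and 5.36 at 0 h, with a change of 0.02 (SE 0.11, limma adjusted p = 0.913) and overlapping groups. A further x_at probe set of ZNF429 above the floor stood at -0.37 and was not called either (adjusted p = 0.0946). In all, the groups did not overlap for 8 of the 11 tested members, 6 lower and 2 higher, against 60.5% of all tested genes, 35.7% lower and 24.8% higher.

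**Figure D2:**
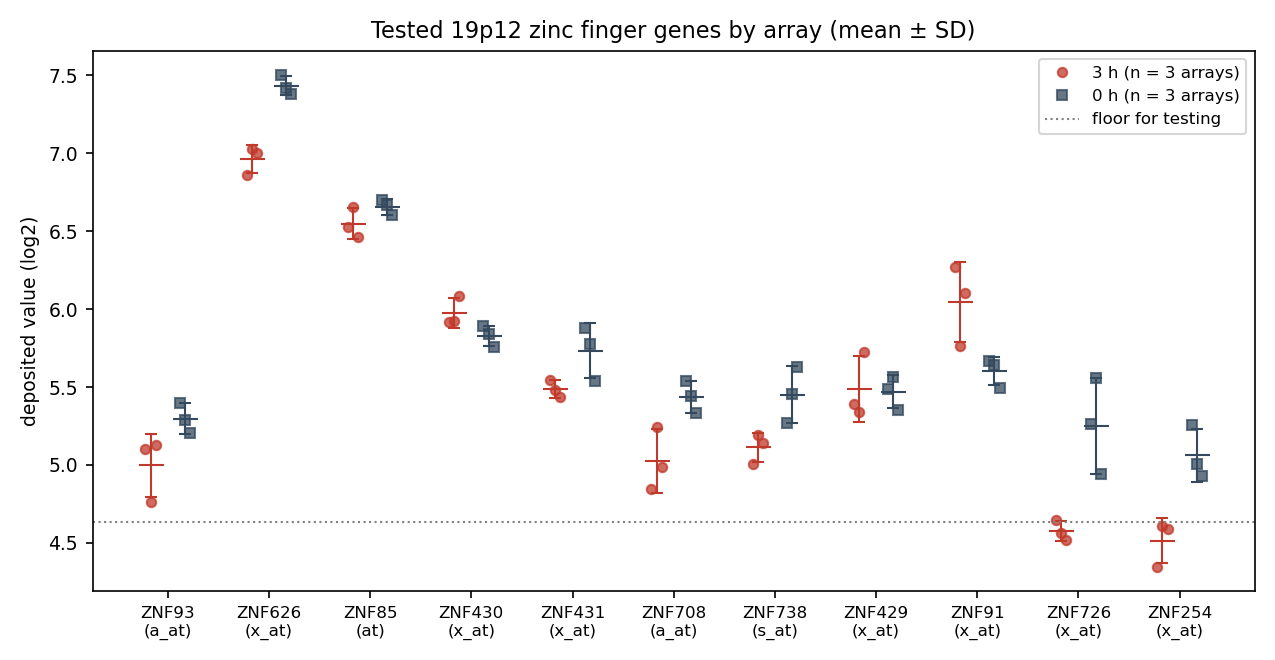
Deposited log2 values (y axis) of the 11 tested genes in chromosome order toward the centromere (x axis, with the suffix of the probe set), for the 3 h arrays (red circles) left of the 0 h arrays (dark squares), with mean and SD of 3 arrays each and the floor of 4.64 as a dotted line. ZNF626 has every 3 h array below every 0 h array, ZNF91 the reverse, and the 3 h means of ZNF726 and ZNF254 lie under the floor.

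The 16 dim members had means over all arrays of 2.13 (ZNF737) to 4.58 (ZNF43) and log2 changes of -0.58 to 0.16. ZNF43 and ZNF100 (4.44) lay just under the floor of 4.64. ZNF682 averaged 2.84 ± 0.13 at 3 h and 3.42 ± 0.14 at 0 h, and ZNF506 averaged 3.05 ± 0.08 at 3 h and 3.60 ± 0.03 at 0 h (SD, n = 3 each). ZNF681 averaged 3.57 ± 0.28 at 3 h and 4.10 ± 0.17 at 0 h, and ZNF90 averaged 3.19 ± 0.09 at 3 h and 3.67 ± 0.19 at 0 h. For each of these 4 genes all 3 h arrays lay below all 0 h arrays, as for 27.3% of all genes with no floor. Other probe sets of ZNF682 (-0.05), ZNF681 (-0.18) and ZNF90 (-0.11 and -0.04) had overlapping groups. None of those was called when every single-symbol probe set was tested with no floor. A further probe set of ZNF506 (-0.27) and of ZNF90 (-0.26) was lower there. At the other end, ZNF253 stood at 4.09 ± 0.06 at 3 h and 3.93 ± 0.15 at 0 h, and ZNF99 at 3.07 ± 0.16 at 3 h and 2.95 ± 0.12 at 0 h, both with overlapping groups. ZNF675, the TRAF6 inhibitor, stood at 2.04 ± 0.04 at 3 h and 2.27 ± 0.10 at 0 h. Whether values this low stand above background was not tested.

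With no floor, all 27 genes with a probe set entered a fit over 18132 genes, of which 34.6% were called. There 13 of the 27 were lower, 1 (ZNF91) was higher and 13 did not pass (limma), against 20.5% of all genes lower and 14.1% higher. The 8 dim genes among the 13 were ZNF506, ZNF682, ZNF90, ZNF737, ZNF493, ZNF676, ZNF675 and ZNF681. The log2 change was below 0 for 21 of the 27, against 51.2% of all genes, with a median of -0.23 over the 27 and -0.01 over all genes. The groups did not overlap for 15 genes that were lower and 2 that were higher, against 27.3% and 20.4% of all genes (47.7% in either direction). At the brightest probe sets, changes of both signs were found toward either end of the cluster, and position was not tested. At the far end from the centromere ZNF506 (-0.54) and ZNF682 (-0.58) lay beside ZNF253 (0.16, not called, with overlapping groups). At the near end ZNF726 (-0.68) and ZNF254 (-0.55) lay close to ZNF91 (0.44), whose other probe set stood at -0.65. ZNF675 (-0.23) and ZNF681 (-0.53), both dim and lower with no floor, lay between ZNF91 and ZNF726.

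**Figure D3:**
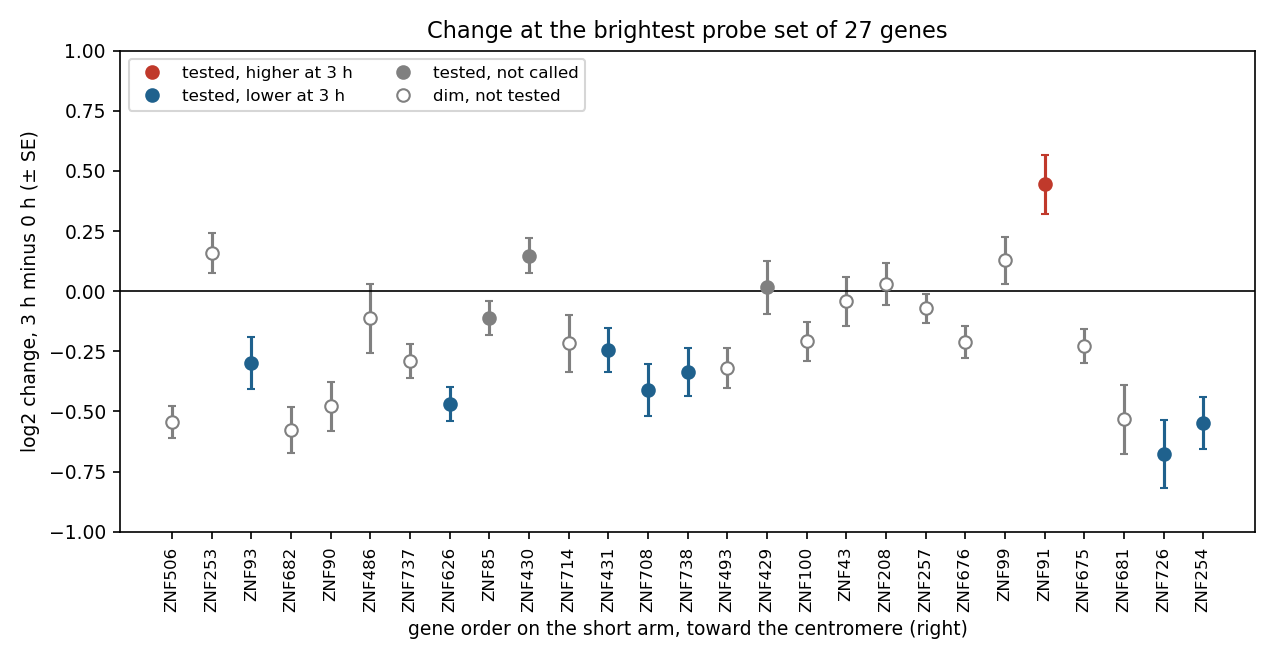
Log2 change, 3 h minus 0 h, at the brightest probe set of each of 27 genes (y axis, with the SE of the fit without a floor), in chromosome order toward the centromere (x axis). Filled symbols are the 11 tested genes, coloured by call in the fit with the floor, and open symbols the 16 dim ones, and 21 of the 27 points lie below 0.

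Most of the brightest probe sets carry a suffix for shared or cross-hybridising probes. Of the 27 brightest probe sets 16 carry x_at and 2 carry s_at. Among the 11 tested genes 7 were x_at, against 13.4% of all tested genes, and 1 was s_at. Signal read by such probe sets may come from another gene, and how much did was not tested. Without s_at and x_at probe sets 4 members were left above the floor. Of these ZNF626, ZNF708 and ZNF93 were lower (-0.59, -0.41 and -0.30) and ZNF85 was not called. In that fit 2964 of 10699 genes were lower and 2316 higher. Of 17 genes with several probe sets, 11 had changes below 0 at each of them, 6 had changes of both signs, and ZNF91 was called in both directions. Over all 52 single-symbol probe sets of the members, 18 were lower, 1 was higher and 33 did not pass with no floor (limma), against 16.0% of all probe sets lower and 16.1% higher. Probe sets of 1 gene share its transcripts, so they are not separate observations.

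**Figure D4:**
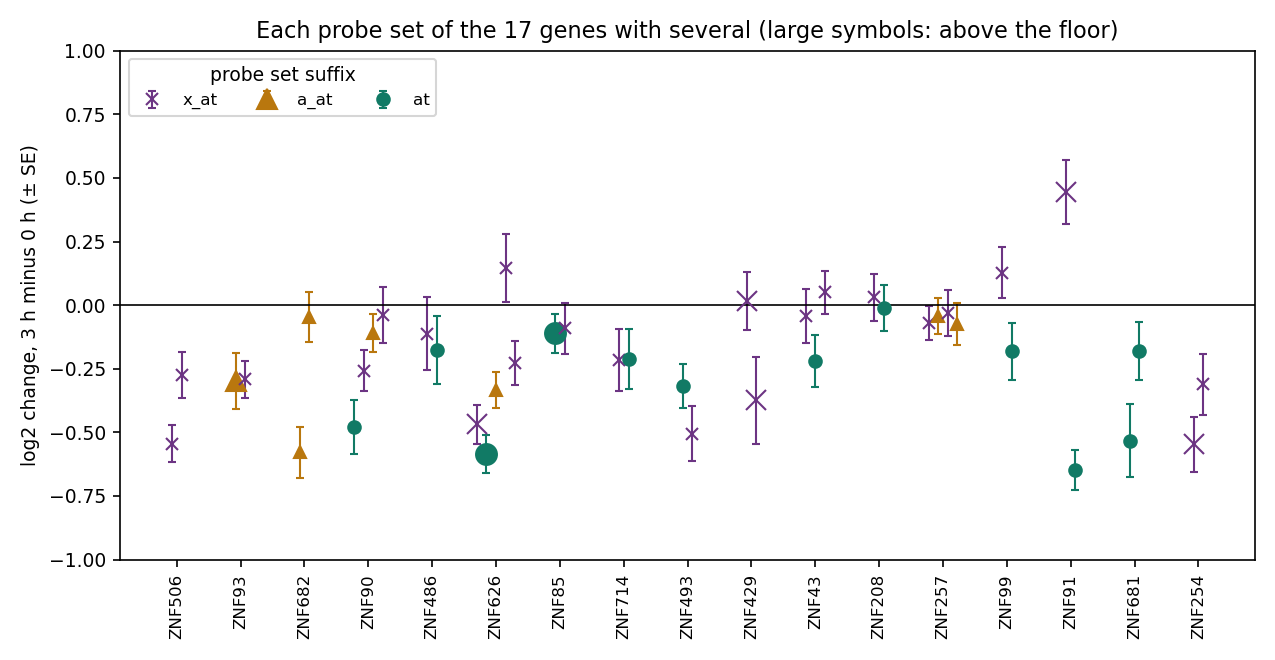
Log2 change, 3 h minus 0 h, with its SE (y axis) for each probe set of the 17 genes that have several (x axis, chromosome order), by suffix, with large symbols for probe sets above the floor of 4.64. The 2 probe sets of ZNF91 lie at 0.44 (x_at) and -0.65 (at), while those of ZNF626 above the floor both lie below 0.

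Zinc finger genes outside the cluster were also more often lower than higher. Of 127 tested genes with a ZNF number elsewhere on chromosome 19, 59 fell and 17 rose, 46.5% and 13.4%, with a median log2 change of -0.21. Of 162 on other chromosomes 65 fell and 29 rose, 40.1% and 17.9%, with a median of -0.13. In the cluster 7 of 11 fell and 1 rose, 63.6% and 9.09%, with a median of -0.30. The 7 include ZNF726 and ZNF254, which passed the floor only through their 0 h arrays, and the rise is that of ZNF91, whose other probe set was lower. Other genes on chromosome 19 went the other way, with 240 of 770 higher and 78 lower, 31.2% and 10.1%, and a median of 0.09. The cluster was not tested against these groups, and nothing here is particular to it. No other gene between its first and last member was above the floor. Of the 2 there with a probe set, the pseudogene ZNF826P averaged 3.51 at 3 h and 4.48 at 0 h and ACTR2P2 averaged 4.58 at 3 h and 4.31 at 0 h, both named after their values were seen.

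**Figure D5:**
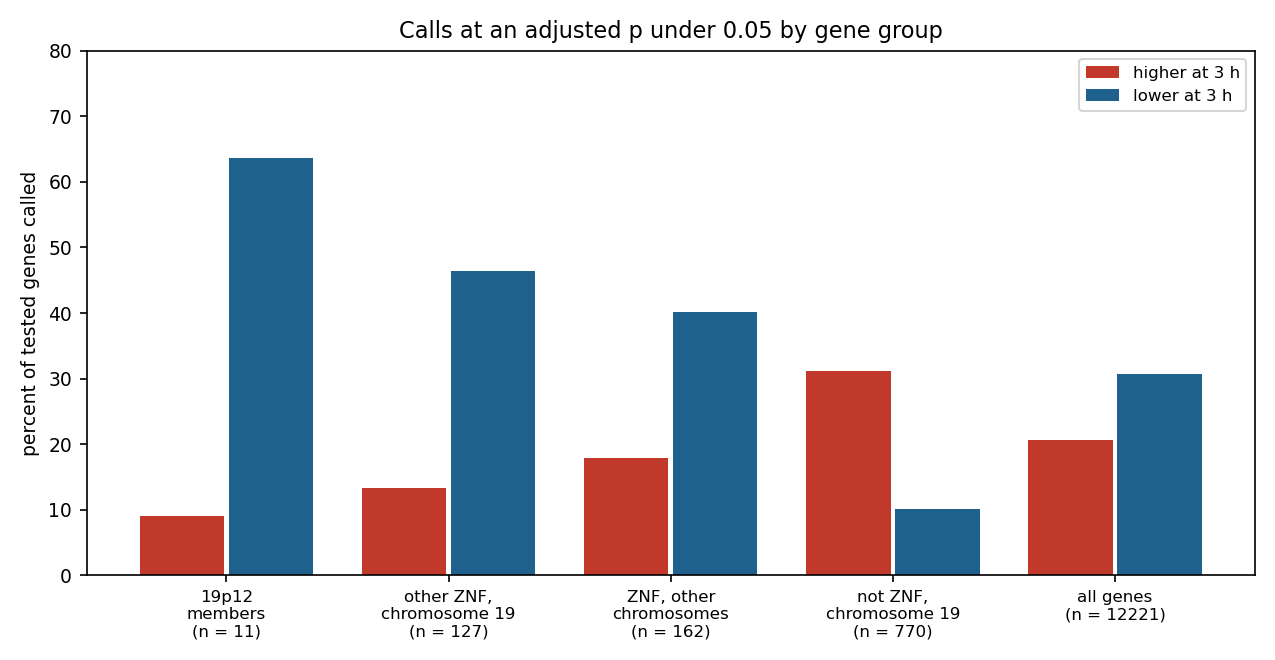
Percent of tested genes called higher (red) and lower (blue) at 3 h, on a y axis from 0, for the 11 members, other genes with a ZNF number on chromosome 19, those on other chromosomes, other genes on chromosome 19 and all genes (x axis, with the number tested). In the members 63.6% were lower, against 30.8% of all genes.

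TRIM28, the corepressor that KRAB zinc finger proteins recruit, read 8.63, 8.79 and 8.66 at 3 h, against 8.36, 8.20 and 8.29 at 0 h. It rose by 0.41 (SE 0.07, n = 3 each, limma adjusted p = 0.00132), and the groups did not overlap. Of 19 tested genes of TRIM28 and the proteins that work with it 8 rose, 5 fell and 6 did not pass, against 20.6% higher and 30.8% lower over all tested genes, with a median log2 change of 0.08. That count of 5 lower was 3 without s_at and x_at probe sets and 3 at a threshold of 0.01. In those fits 2964 of 10699 and 2722 of 12221 genes were lower in all. The largest increases in the list were those of MBD3 (0.74), GATAD2B (0.69) and GATAD2A (0.63), which encode subunits of NuRD, a histone deacetylase and remodelling complex. The probe set of MBD3 carries x_at and that of GATAD2A s_at. Without s_at and x_at probe sets the order changed, with GATAD2A at 0.96, GATAD2B at 0.69 and MBD3 at 0.56. Of the 11 NuRD genes in the list, grouped after their values were seen, 5 rose, 1 (RBBP7, -0.17) fell and 5 did not pass, among them the deacetylase genes HDAC1 (-0.08) and HDAC2 (-0.18). With no floor neither RBBP7 (limma adjusted p = 0.0522) nor RBBP4, among those that rose (0.18, limma adjusted p = 0.0595), was called. SETDB1 rose by 0.18 (limma adjusted p = 0.0169), but the call ended with a variance trend (adjusted p = 0.0570), without 0 h replicate 1 (0.0600) and without 0 h replicate 2 (0.0550). Averaged over its probe sets SETDB1 stood at -0.04 and was not called. The HP1 gene CBX3 fell by 0.22 and CBX1 stood at -0.09 (limma adjusted p = 0.253). CBX5, the third HP1 gene, fell by 0.35 at its brightest probe set but was called higher, at 0.23, averaged over its 7 probe sets. Of 5 genes of the HUSH complex, which silences transposable elements with SETDB1, and of the MORC family, 2 fell and 0 rose (median -0.15). MORC3 read 6.46, 6.97 and 6.72 at 3 h, against 7.48, 7.37 and 7.56 at 0 h, and fell by 0.75 (SE 0.12, limma adjusted p = 0.00101). That probe set carries s_at, and without s_at and x_at probe sets the change of MORC3 was -0.59. The HUSH subunit gene TASOR fell by 0.33, and MPHOSPH8 stood at 0.20 (limma adjusted p = 0.112), or -0.16 averaged over its probe sets. Without 3 h replicate 2 MPHOSPH8 stood at 0.32 and was called higher (limma adjusted p = 0.00356).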

How the data were processed

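The values are log2 signals that the authors deposited for 49372 probe sets on 6 arrays; the log2 scale was read from the values. Tools listed in the submitters' processing notes are MAS5 and RMA, with no version or role. Array medians lay between 5.30 and 5.34, so the table cannot show a change in total RNA.

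Gene names came from GEO's platform annotation (44988 probe sets with 1 symbol, 1832 with several, 2473 with none), and 79 control probe sets were left out. Of 18132 genes 5911 were under the floor. The comparison used limma 3.58.1 (lmFit, then eBayes) under R 4.3.3, without a block, with Benjamini-Hochberg adjustment over all genes tested and a threshold of 0.05. The step was tested on simulated data. Changes are 3 h minus 0 h. Precision is limited by the 3 arrays per group.

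The members, lists, floor and tests were chosen with earlier results of these data known. Every member could be named. Of the corepressor, HUSH and MORC lists, TRIM28, SETDB1, 3 HP1 genes, TASOR, MPHOSPH8 and called genes with a log2 change of at least 0.5 were. Outside that rule RBBP4, RBBP7, HDAC1 and HDAC2 were named with the NuRD genes, which were grouped after their values were seen. No test of a list against other genes was run. Promoter windows (the first listed per gene) were aligned with Biopython 1.88, with free end gaps. Figures were drawn with matplotlib 3.10.9.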

Additional observations from a re-analysis of the deposited data

How the results depend on the processing

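Alternatives covered the normalization, the floor, the probe set, the variance trend, weights for arrays, a replicate block, the threshold and leaving out each array; tests of single probe sets and the alternatives for the corepressor, HUSH and MORC genes were added after seeing the data. The count of members lower at 3 h, 7 in the reported fit, was 13 with no floor, 3 without s_at and x_at probe sets and 4 at a threshold of 0.01. In those fits 3710 of 18132, 2964 of 10699 and 2722 of 12221 genes were lower in all. When each probe set was tested with no floor, 18 probe sets of the members were lower, against 16.0% of all probe sets. The count higher, 1, was 0 when probe sets were averaged, without s_at and x_at probe sets, and at a threshold of 0.01. There 3066 of 12221, 2316 of 10699 and 1732 of 12221 genes were higher in all. The median log2 change of the tested members, -0.30, was -0.23 with no floor, which brings in the dim members, and -0.36 without s_at and x_at probe sets, which leaves 4. Leaving out 1 array at a time gave 5 to 6 members lower, 1 higher in each fit, and medians of -0.35 to -0.24. Over all genes those fits gave 2081 to 2525 higher and 3114 to 3627 lower. With the replicate block 7 members were lower and 1 was higher, with 2336 genes higher and 3502 lower in all. Deviations of same-numbered arrays from their group means correlated at -0.04, -0.02 and -0.19. These values show no variation shared by number, but they cannot tell whether same-numbered arrays were handled together.

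ZNF429, which was not called, changed sign to -0.0251 with quantile normalization, -0.0214 with median centring, -0.18 averaged over its probe sets and -0.00835 with array weights, and ran from -0.10 to 0.0895 as 1 array at a time was left out. Averaging over probe sets also reversed ZNF91 to -0.10, SETDB1 to -0.0417, CBX5 to 0.23 and MPHOSPH8 to -0.16, and the cause was not tested. Across the 158 repeats for the 11 tested members, 134 kept direction and call, 17 lost the call and 7 changed sign. ZNF626, ZNF708, ZNF726 and ZNF254 were called lower in each alternative in which they were tested. ZNF726 and ZNF254 passed the floor only through their 0 h arrays. Both are x_at, so neither was tested without s_at and x_at probe sets. The other probe set of ZNF254 was not called with no floor (limma adjusted p = 0.0813). The call of ZNF431 also ended with a variance trend (adjusted p = 0.0531). Dim signal limits 16 of the 27 members, and the 3 h means of ZNF726 and ZNF254 were also under the floor. The floor is a percentile and does not mark detection. CD3E, VWF and PECAM1, markers of blood and endothelial cells, averaged 5.11, 5.19 and 5.29. The called members ZNF93 (5.15), ZNF708 (5.23), ZNF738 (5.28), ZNF726 (4.91) and ZNF254 (4.79) were no brighter than PECAM1. Whether values at this level stand above background was not tested.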
